A study of Mus musculus with 6 samples.

Results

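In 2 kinds of subclone of mouse B16 melanoma, Tyr-H and Tyr-L cells, RNA levels were compared for 10 genes that stand between TNF-family receptors and the transcription factor NF-kappaB. The genes were chosen by name, with earlier results of these data known. They were the TRAF adaptors *Traf1*, *Traf2* and *Traf3*, the TRAF-binding adaptor *Tank*, and the cellular inhibitors of apoptosis *Birc2* (cIAP1) and *Birc3* (cIAP2). The others were the ubiquitin-editing proteins *Tnfaip3* (A20) and *Tnip1* (ABIN1), and the kinases *Map3k14* (NIK) and *Ikbke* (IKK-epsilon). All 10 were found among the 20788 genes listed in at least 1 library, and each was listed in every library.

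TRAF proteins bind the cytoplasmic tails of TNF-family receptors and carry the cIAP ubiquitin ligases with them, and the ubiquitin chains built there recruit the kinases that free NF-kappaB for entry into the nucleus. In resting cells TRAF2, TRAF3 and the cIAPs form a complex that marks NIK for degradation, which holds the non-canonical branch of the pathway off. A20 edits ubiquitin chains and ends the signal with the help of its partner ABIN1, and the genes for A20, cIAP2 and TRAF1 are textbook targets of NF-kappaB itself. TANK joins TRAFs to the kinases TBK1 and IKK-epsilon, which act on antiviral and NF-kappaB signalling.

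The B16 line comes from a C57BL/6 mouse melanoma, and its cells were grown in low-glucose DMEM with serum. Tyr-H cells were the subclones with high tyrosinase activity and Tyr-L cells those with low activity, picked by a monoclonal assay, and the 2 groups carried no other treatment or genetic change that the labels name. Each group had 3 mRNA libraries, with 16813 to 17413 genes listed per library and an estimated 20200000 to 21600000 fragments each. Whether libraries of the same group stem from separate cultures or from 1 clone is not in the labels, so the p-values measure the spread between these libraries, which may be technical. They name no batch, and with cultured cells of 1 line a smaller share of expressing cells and less RNA per cell cannot be told apart.

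*Tyr*, the tyrosinase gene behind the group names, was at 10.7, 9.52 and 9.80 in Tyr-L and at 23.8, 20.6 and 19.7 in Tyr-H libraries, in FPKM, the fragments assigned to a gene divided by transcript length and sequencing depth. The melanocytic markers were all listed, 10 of 10, with a summed level of 7583 to 7906 FPKM in Tyr-L and 5646 to 6201 in Tyr-H cells. By adjusted p alone 1 of them (*Tyr*) was higher and 8 were lower, beside 17.9% and 39.9% of all tested genes. *Tyr* (log2 fold change 1.08), *Mitf* (-1.85), the melanocyte regulator, and *Oca2* (-2.06), a melanosomal channel gene, also passed a 2-fold threshold. Leukocyte markers summed to 3.91 to 4.97 FPKM in Tyr-L and 4.83 to 5.13 in Tyr-H cells, with 12 of 20 unlisted in every library, *Ptprc* among them. Fibroblast and endothelial markers summed to 2.41 to 2.93 and 2.22 to 2.45 FPKM, with 9 of 12 listed. Median differences between libraries over all genes were 0.0953 to 0.114 on the log2 scale within a group and 0.315 to 0.371 between groups.

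Among the adaptors and ligases *Traf1* was higher in Tyr-H cells by a log2 fold change of 1.86 and *Birc3* by 0.95, and among the ubiquitin editors *Tnfaip3* was higher by 1.03 and *Tnip1* by 0.74. *Traf2*, *Traf3* and *Birc2*, the other subunits of the complex that marks NIK, did not pass the test. Differences were computed on log2(FPKM + 0.1) with limma over the 14336 genes whose mean reached 0.1 FPKM, and this scale understates the change of weakly expressed genes. Calls needed both a limma adjusted p no higher than 0.05 and a 2-fold change or more. By that rule 2 of the 10 genes were called higher (*Traf1* and *Tnfaip3*) and 0 lower, beside 8.75% of all tested genes called in either direction, 2.96% higher and 5.78% lower. All 10 passed the expression filter. *Traf1* passed it through its level in Tyr-H cells alone and so had to differ, which leaves *Tnfaip3* as the only call that the filter could not favour. Without the filter *Traf1* was still called.

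By the adjusted p alone (0.05 or less, no fold threshold) 5 genes were higher in Tyr-H cells and 2 were lower, beside 17.9% and 39.9% of all tested genes. At an unadjusted p under 0.05 the counts were also 5 and 2. The lowest library of one group lay above the highest of the other for 5 genes higher and 3 genes lower in Tyr-H cells, which 20.2% and 43.8% of all tested genes also did. With 3 libraries against 3, the exact two-sided permutation test cannot give less than 0.1, and it gave that value for all 8 of these genes. The median log2 fold change of the 10 genes was 0.16, that of all tested genes was -0.15, and 8 of the 10 lay above the latter.

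**Figure D1:**
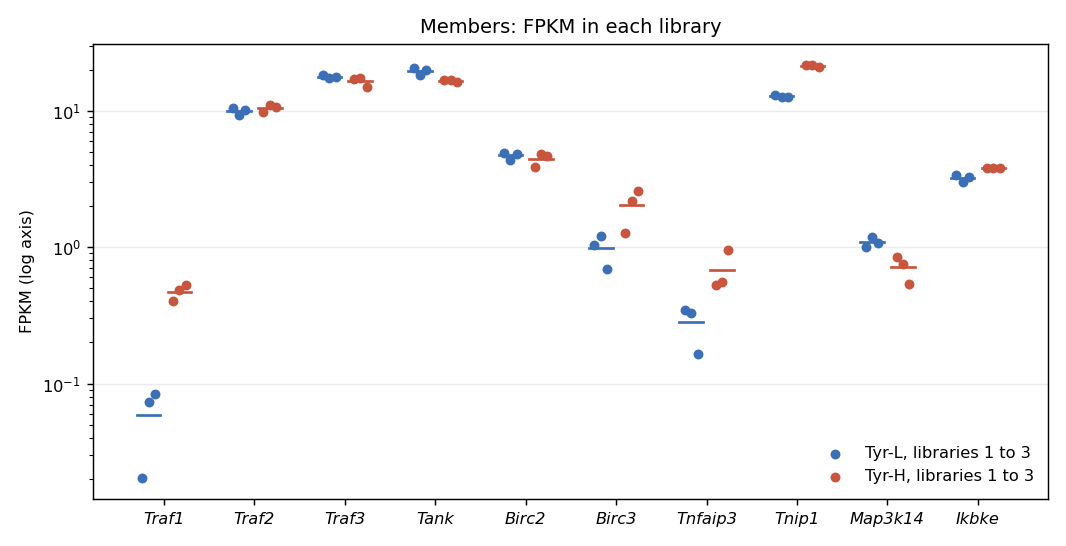
FPKM of the 10 genes in each library on a log axis, with Tyr-L libraries in blue, Tyr-H libraries in red and a line at each group mean (3 libraries a group). *Traf1* has the widest gap between the groups, and *Traf2* and *Birc2* have groups that overlap.

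Among the TRAF adaptors, *Traf1* alone was called. TRAF1 lacks the RING domain of its relatives and acts by joining complexes that TRAF2 has formed. *Traf1* (ENSMUSG00000026875, minus strand of chromosome 2, 34941750 to 34961772 in GRCm38) was at 0.0202, 0.0732 and 0.0836 FPKM in Tyr-L cells and at 0.405, 0.483 and 0.526 FPKM in Tyr-H cells. The groups were far apart, and every Tyr-H library lay several-fold above the highest Tyr-L library. The group means were 0.0590 ± 0.0340 and 0.471 ± 0.0613 FPKM (SD, n = 3 libraries each here and below), a ratio of 7.99, and the log2 fold change was 1.86 (SE 0.29, 95% interval 1.21 to 2.51, limma adjusted p = 0.00044).

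The depth behind these *Traf1* values was small. From the estimated depth and the longest annotated transcript, the Tyr-L values stood for about 1.40, 5.21 and 5.80 fragments and the Tyr-H values for about 28.8, 35.8 and 37.4. A level of 3 fragments, which is the limit that a count of 0 allows, was 0.0404 to 0.0432 FPKM, so the first Tyr-L library lay under it. The size of the change therefore moved with the constant added before taking logs, from 0.47 with 1 FPKM, which is under the 2-fold threshold, to 2.96 with 0.01 FPKM, while its limma adjusted p was at most 0.0032 under the 15 alternatives that kept it.

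*Traf2*, the adaptor that holds the cIAPs at the receptor, was at 10.5, 9.25 and 10.2 FPKM in Tyr-L and at 9.77, 11.1 and 10.7 FPKM in Tyr-H cells. The 2 groups overlapped. The means were 10.0 ± 0.671 and 10.5 ± 0.677 FPKM, and the log2 fold change of 0.07 had a 95% interval of -0.09 to 0.23 (limma adjusted p = 0.43). *Traf2* (ENSMUSG00000026942) lies on the minus strand of chromosome 2, 25517982 to 25546940.

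*Traf3*, the subunit that binds NIK, was at 18.3, 17.5 and 17.7 FPKM in Tyr-L and at 17.2, 17.3 and 15.0 FPKM in Tyr-H cells. The Tyr-H libraries were all lower, and the third of them stood well below the others. The log2 fold change of -0.11 (SE 0.06, 95% interval -0.25 to 0.03) did not pass the test (limma adjusted p = 0.144), and it turned positive when scaled by median ratios (0.039) or by quantiles (0.016). Rescaled to equal totals it was -0.21, with a limma adjusted p of 0.0322. *Traf3* (ENSMUSG00000021277) lies on the plus strand of chromosome 12, 111166370 to 111267153.

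The promoter windows of the called adaptor and of *Traf2* are shown because of these paralogs one was called and the other was not. Each holds 250 bases before and 50 after the RefSeq start site (GRCm38.p6), read along the gene's strand, with CpG dinucleotides in capitals. The *Traf1* window is chr2:34961723-34962022 (minus strand) and the *Traf2* window chr2:25546891-25547190 (minus strand).
Traf1: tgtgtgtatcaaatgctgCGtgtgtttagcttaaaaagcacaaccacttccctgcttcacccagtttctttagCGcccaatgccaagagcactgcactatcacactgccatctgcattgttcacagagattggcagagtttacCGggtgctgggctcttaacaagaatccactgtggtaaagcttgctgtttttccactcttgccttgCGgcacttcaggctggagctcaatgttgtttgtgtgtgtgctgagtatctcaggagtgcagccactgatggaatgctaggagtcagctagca
Traf2: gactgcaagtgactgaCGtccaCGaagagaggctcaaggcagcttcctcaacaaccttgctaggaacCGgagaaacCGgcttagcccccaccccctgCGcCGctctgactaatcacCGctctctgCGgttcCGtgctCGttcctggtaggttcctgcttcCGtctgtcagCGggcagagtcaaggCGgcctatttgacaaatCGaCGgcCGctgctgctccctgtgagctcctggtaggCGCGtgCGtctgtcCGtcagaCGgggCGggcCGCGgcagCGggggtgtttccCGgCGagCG
The *Traf1* window held 4 CpG and was 48.7% G or C, and the *Traf2* window held 28 CpG and was 64.0% G or C. Over all 32851 windows in the RefSeq table the median was 7 CpG, with 38.0% of windows at or under the *Traf1* count and 87.1% at or under that of *Traf2*.

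The cIAP genes are neighbours on chromosome 9 and paralogs, so reads shared between them could have been split by the counting. cIAP1 is present in most cells, while cIAP2 is the inducible relative. *Birc3* (ENSMUSG00000032000, minus strand, 7848699 to 7873186) was at 1.04, 1.21 and 0.691 FPKM in Tyr-L and at 1.28, 2.19 and 2.60 FPKM in Tyr-H cells. The groups did not overlap, although the first Tyr-H library lay just above the second Tyr-L library.

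The mean of *Birc3* was 0.982 ± 0.266 FPKM in Tyr-L cells against 2.02 ± 0.676 FPKM in Tyr-H cells. Its log2 fold change of 0.95 (SE 0.27, 95% interval 0.34 to 1.56, limma adjusted p = 0.0142) was just under the 2-fold threshold, so *Birc3* was not called. It passed both criteria under 6 of 16 alternatives, with log2 fold changes of 1.00 to 1.23 in these. These were the 0.01 FPKM constant, median ratio and quantile scaling, and leaving out the first or second Tyr-L library or the first Tyr-H library. Under 4 others its limma adjusted p was above 0.05, at most 0.0537, namely without the variance trend and without the third Tyr-L, the second Tyr-H or the third Tyr-H library. With 1 FPKM added before taking logs its log2 fold change was 0.59 (limma adjusted p = 0.0137).

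*Birc2* (ENSMUSG00000057367, minus strand, 7818227 to 7837064) was at 4.93, 4.34 and 4.85 FPKM in Tyr-L and at 3.86, 4.85 and 4.65 FPKM in Tyr-H cells. The groups overlapped, with the first Tyr-H library the lowest of the 6. The log2 fold change was -0.08 (SE 0.10, 95% interval -0.31 to 0.15, limma adjusted p = 0.52), and it turned positive when scaled by median ratios (0.068) or by quantiles (0.096), and without that library (0.015).

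The windows of both genes are given in the same way, on chr9:7873121-7873420 for *Birc3* and chr9:7837008-7837307 for *Birc2* (both minus strand, CpG in capitals).
Birc3: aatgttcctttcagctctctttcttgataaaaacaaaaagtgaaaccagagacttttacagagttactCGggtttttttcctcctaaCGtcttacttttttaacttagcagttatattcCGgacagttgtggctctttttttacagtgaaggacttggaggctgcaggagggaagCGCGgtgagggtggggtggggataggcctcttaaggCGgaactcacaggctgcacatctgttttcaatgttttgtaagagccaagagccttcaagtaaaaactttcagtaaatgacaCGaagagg
Birc2: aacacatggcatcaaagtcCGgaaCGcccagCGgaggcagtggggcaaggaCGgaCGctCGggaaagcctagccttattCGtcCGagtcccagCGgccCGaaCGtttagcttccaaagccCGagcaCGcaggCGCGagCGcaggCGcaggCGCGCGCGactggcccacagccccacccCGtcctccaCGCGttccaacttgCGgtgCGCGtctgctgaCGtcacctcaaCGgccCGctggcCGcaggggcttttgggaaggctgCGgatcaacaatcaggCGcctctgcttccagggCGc
The *Birc3* window held 7 CpG, the median of all windows, and the *Birc2* window held 34, with 93.0% of all windows at or under that number. Among genes higher in Tyr-H cells by adjusted p, the windows held 4 CpG (*Traf1*, *Tnip1* and *Ikbke*), 7 (*Birc3*) and 22 (*Tnfaip3*). Among genes lower they held 3 (*Tank*) and 25 (*Map3k14*). Those of genes that did not pass held 28 (*Traf2*), 34 (*Birc2*) and 59 (*Traf3*). A relation of CpG count to the direction of change was not tested. Some genes have further RefSeq start sites, and the window nearest the GENCODE gene end was used throughout. The other *Tnfaip3* window held 6 CpG and no match to the NF-kappaB motif searched for here, the other *Birc2* window held 21 CpG, and the other 3 *Tank* windows held 1, 12 and 18.

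A20 ends NF-kappaB signalling by editing ubiquitin chains, and mice and people with too little of it develop inflammation. *Tnfaip3* (ENSMUSG00000019850, minus strand of chromosome 10, 19000910 to 19015657) was at 0.349, 0.327 and 0.165 FPKM in Tyr-L and at 0.525, 0.555 and 0.949 FPKM in Tyr-H cells. The groups did not overlap, with the third Tyr-L library the lowest and the third Tyr-H library the highest. These values stood for about 20.6 to 43.7 fragments in Tyr-L and 67.4 to 121.7 in Tyr-H cells.

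The mean of *Tnfaip3* was 0.280 ± 0.101 FPKM in Tyr-L cells against 0.676 ± 0.236 FPKM in Tyr-H cells, a log2 fold change of 1.03 (SE 0.30, 95% interval 0.35 to 1.70, limma adjusted p = 0.0152). The call was lost in 3 of 15 alternatives. With 1 FPKM added before taking logs the log2 fold change was 0.38. The log2 fold change was 0.78 without the third Tyr-L library (limma adjusted p = 0.0495) and 0.79 without the third Tyr-H library (limma adjusted p = 0.0625), and 1 gene of the 10, *Traf1*, was then called.

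ABIN1 binds A20 and ubiquitin chains and helps A20 to act. *Tnip1* (ENSMUSG00000020400, minus strand of chromosome 11, 54910785 to 54962917) was at 13.1, 12.7 and 12.7 FPKM in Tyr-L and at 21.5, 21.8 and 21.1 FPKM in Tyr-H cells. The libraries of a group lay close together and the groups were well apart. The means of 12.8 ± 0.231 and 21.5 ± 0.344 FPKM gave a log2 fold change of 0.74 (SE 0.04, 95% interval 0.64 to 0.84, limma adjusted p = 1.4e-06). Its adjusted p was the lowest of the 10 genes, but the change was under the 2-fold threshold in all 16 alternatives, which gave 0.65 to 0.89.

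NF-kappaB proteins bind DNA at sites of 10 bases known as the kappaB consensus, which was searched on both strands of each window. The windows of *Tnfaip3*, chr10:19015361-19015660, and *Tnip1*, chr11:54962891-54963190 (both minus strand), are shown with the matches in capitals. *Tnip1* is shown outside the rule for naming sequences and was chosen after its values were seen.
Tnfaip3: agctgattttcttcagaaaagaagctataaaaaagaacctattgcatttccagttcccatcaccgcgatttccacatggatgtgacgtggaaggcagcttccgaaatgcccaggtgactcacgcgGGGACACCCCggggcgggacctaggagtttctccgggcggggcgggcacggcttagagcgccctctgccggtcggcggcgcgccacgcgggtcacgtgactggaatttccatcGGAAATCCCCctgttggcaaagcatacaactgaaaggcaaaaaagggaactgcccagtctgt
Tnip1: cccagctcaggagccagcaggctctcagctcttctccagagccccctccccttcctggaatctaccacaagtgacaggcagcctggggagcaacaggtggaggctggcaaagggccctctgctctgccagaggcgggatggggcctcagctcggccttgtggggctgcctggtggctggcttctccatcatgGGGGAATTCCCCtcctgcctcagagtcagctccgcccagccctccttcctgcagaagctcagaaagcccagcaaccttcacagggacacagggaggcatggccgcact
*Tnfaip3* had 2 matches, at -125 to -116 and at -12 to -3 from the RefSeq start site, which lies 247 bases inside the GENCODE gene end. *Tnip1* had 3 matches that overlap in 1 run of 12 bases at -58 to -47. A match was also found before *Traf3*, at -10 to -1, and before *Tank*, at -39 to -30, and 8.46% of all windows in the table held at least 1. The windows of *Traf1*, *Traf2*, *Birc2*, *Birc3*, *Map3k14* and *Ikbke* held none of these letters, which says nothing about binding elsewhere.

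**Figure D2:**
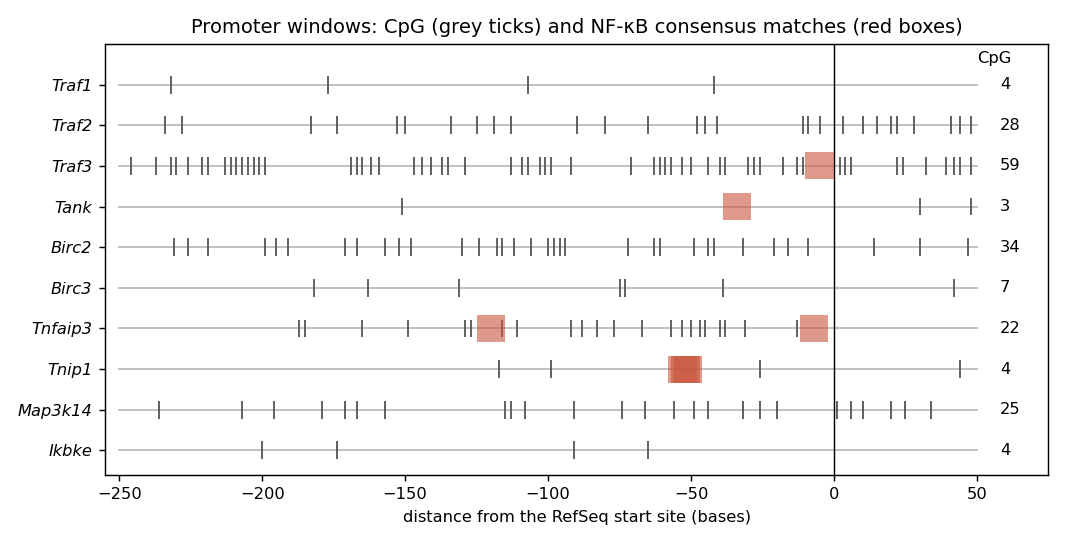
Promoter windows of the 10 genes from 250 bases before to 50 after the RefSeq start site (vertical line), with grey ticks for CpG, red boxes for matches to the kappaB consensus on either strand, and the CpG count at the right. *Traf1*, *Tnip1*, *Ikbke* and *Tank* have 3 or 4 CpG, and *Traf3* has 59.

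NIK is the kinase of the non-canonical branch, and its protein is held low by degradation, which mRNA does not report. *Map3k14* (ENSMUSG00000020941, minus strand of chromosome 11, 103219762 to 103267472) was at 1.01, 1.19 and 1.08 FPKM in Tyr-L and at 0.853, 0.753 and 0.538 FPKM in Tyr-H cells. The groups did not overlap, and the third Tyr-H library was the lowest. The means were 1.09 ± 0.0912 and 0.715 ± 0.161 FPKM, with a log2 fold change of -0.57 (SE 0.19, 95% interval -1.0 to -0.13, limma adjusted p = 0.0301).

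The limma adjusted p of *Map3k14* was above 0.05 in 6 of 15 alternatives, at most 0.125. These were no expression filter, median ratio scaling (log2 fold change -0.43), quantile normalization (-0.39), and leaving out the second (-0.51) or the third (-0.57) Tyr-L library or the third Tyr-H library (-0.40). With 1 FPKM added before taking logs the log2 fold change was -0.29 (limma adjusted p = 0.0204). *Map3k14* shares 135 exonic bases on its own strand with *1700028N14Rik*, and reads from these bases could belong to either gene.

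IKK-epsilon is a kinase that many cells raise after inflammatory signals. *Ikbke* (ENSMUSG00000042349, minus strand of chromosome 1, 131254343 to 131279606) was at 3.38, 2.99 and 3.26 FPKM in Tyr-L and at 3.81, 3.82 and 3.79 FPKM in Tyr-H cells. All Tyr-H libraries were higher and nearly equal. The means of 3.21 ± 0.197 and 3.81 ± 0.0146 FPKM differed by 0.24 on the log2 scale (SE 0.09, 95% interval 0.05 to 0.44, limma adjusted p = 0.0375). In 8 of 16 alternatives the limma adjusted p was above 0.05, at most 0.199, among them rescaling to equal totals (log2 fold change 0.15), the replicate block and leaving out any library but the first Tyr-L library. Exons of the antisense genes *Gm28913* and *Gm28914* overlap *Ikbke*, and whether the counting used strand is not given in the sources used here.

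*Tank* (ENSMUSG00000064289, plus strand of chromosome 2, 61578585 to 61654171) was at 20.7, 18.4 and 20.02 FPKM in Tyr-L and at 16.9, 16.7 and 16.4 FPKM in Tyr-H cells. The groups did not overlap and the Tyr-H libraries lay close together. The means were 19.7 ± 1.21 and 16.7 ± 0.249 FPKM, with a log2 fold change of -0.24 (SE 0.05, 95% interval -0.36 to -0.12, limma adjusted p = 0.0038). That is -0.08 from the median of all tested genes, and with median ratio scaling, which removes most of the shift of all genes, it was -0.085 (limma adjusted p = 0.197), and with quantile normalization -0.11 (limma adjusted p = 0.113).

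The shift of all genes bears on each small difference here. Relative to the median of all tested genes the log2 fold changes were 2.02 for *Traf1*, 1.18 for *Tnfaip3*, 1.10 for *Birc3*, 0.89 for *Tnip1* and 0.40 for *Ikbke*. The same values were 0.22 for *Traf2*, 0.07 for *Birc2*, 0.04 for *Traf3*, -0.08 for *Tank* and -0.41 for *Map3k14*. *Traf1* stood at the 99.2 percentile of all log2 fold changes, *Tnfaip3* at 97.0, *Birc3* at 96.6, *Tnip1* at 94.9 and *Map3k14* at 19.3. Rescaling every library to the same total of 1000000 FPKM moved the median of all genes to -0.25, and median ratio scaling moved it to -0.01. *Traf2* turned from 0.07 to -0.024 under the former, while median ratio and quantile scaling, 2 of its 16 alternatives, gave it an adjusted p under 0.05, the lower one 0.0178 (limma).

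**Figure D3:**
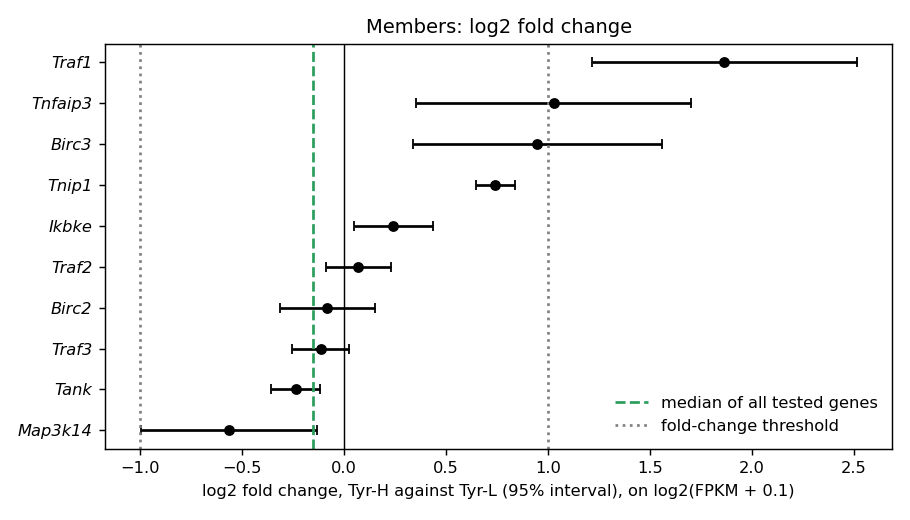
Log2 fold change of each gene, Tyr-H against Tyr-L, with its 95% interval from limma, the median of all tested genes (green dashed line) and the 2-fold threshold (grey dotted lines). *Traf1*, *Tnfaip3*, *Birc3* and *Tnip1* lie between 0.74 and 1.86, and the intervals of *Traf2*, *Birc2* and *Traf3* cover 0.

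The order of levels, which FPKM allows since it is per length, differed between the cell types. In Tyr-L cells *Tank* was highest at 19.7 FPKM, followed by *Traf3* (17.8), *Tnip1* (12.8), *Traf2* (10.0), *Birc2* (4.71), *Ikbke* (3.21), *Map3k14* (1.09), *Birc3* (0.982), *Tnfaip3* (0.280) and *Traf1* (0.0590). The ranges of neighbours in that order were apart except for *Map3k14* and *Birc3*. In Tyr-H cells *Tnip1* came first, *Birc3* stood above *Map3k14*, and *Tank* and *Traf3* overlapped, as did *Map3k14* with *Tnfaip3* and *Tnfaip3* with *Traf1*.

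Ratios within a library do not depend on how the libraries are scaled, apart from the added constant. *Birc3* made up 17.5%, 21.9% and 12.5% of the summed *Birc2* and *Birc3* level in Tyr-L cells and 24.9%, 31.1% and 35.8% in Tyr-H cells. Every Tyr-H library had a larger share than every Tyr-L library. The log2 ratio of *Birc3* to *Birc2* went from -2.18 ± 0.45 to -1.15 ± 0.36, a difference of 1.03 (0.66 with 1 FPKM as the constant).

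*Traf1* made up 0.214% ± 0.125 of the summed *Traf1*, *Traf2* and *Traf3* level in Tyr-L cells and 1.72% ± 0.27 in Tyr-H cells. It was the least abundant of the 3 in every library. Its log2 ratio to *Traf2* differed by 1.79 and that to *Traf3* by 1.98, and both depended on the constant (0.41 and 0.58 with 1 FPKM).

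*Tbk1*, the kinase related to IKK-epsilon, was lower in Tyr-H cells, with 10.9, 10.6 and 10.9 FPKM in Tyr-L cells against 7.12, 7.82 and 6.71 FPKM in Tyr-H cells (log2 fold change -0.58, SE 0.07, limma adjusted p = 7.6e-05). The groups did not overlap. The *Ikbke* to *Tbk1* log2 ratio was -1.72 ± 0.06 in Tyr-L and -0.90 ± 0.10 in Tyr-H cells, and *Ikbke* made up 22.9% ± 0.786 of their sum in the former and 34.6% ± 1.64 in the latter.

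The *Map3k14* to *Traf3* log2 ratio was -3.91 ± 0.14 in Tyr-L and -4.36 ± 0.19 in Tyr-H cells, with groups that did not overlap. The *Tnfaip3* to *Tnip1* log2 ratio was -5.13 ± 0.41 in Tyr-L and -4.84 ± 0.43 in Tyr-H cells, and here the groups overlapped (exact two-sided permutation p = 0.6). For the other 5 ratios the exact permutation test gave p = 0.1, the smallest it can give, and 0.12 after Benjamini-Hochberg adjustment over the 6 ratios.

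**Figure D4:**
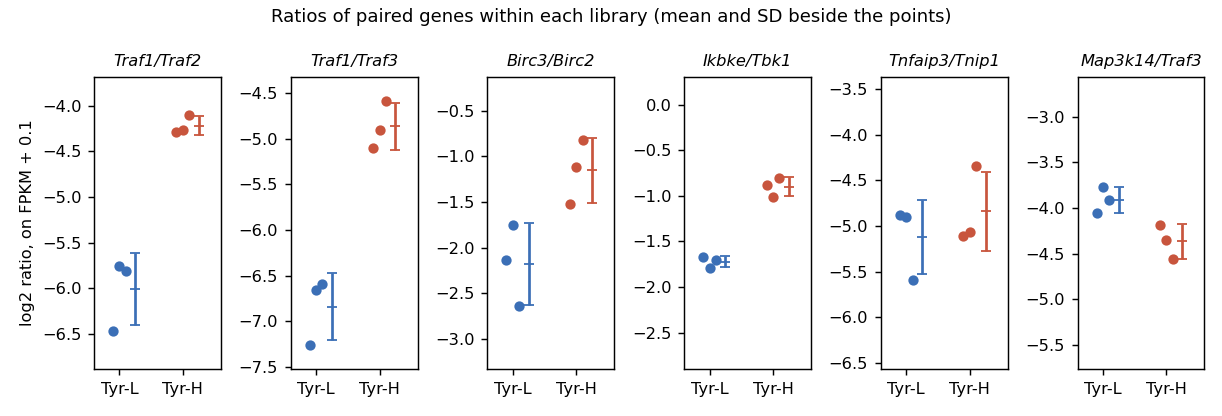
Log2 ratio of paired genes in each library on FPKM + 0.1, with Tyr-L in blue and Tyr-H in red and the mean and SD of 3 libraries beside the points; every panel spans the same number of log2 units. The groups are apart in 5 panels and overlap for *Tnfaip3* to *Tnip1*.

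*Tnfaip3*, *Traf1* and *Birc3* were all highest in the third Tyr-H library, and *Tnfaip3*, *Birc3* and *Tnip1* were lowest in the third Tyr-L library. *Map3k14*, *Traf3* and *Tank* were lowest in the third Tyr-H library. Other values went the other way: *Tnip1* was lower in the third than in the other Tyr-H libraries, *Traf1* was highest of the Tyr-L libraries in the third, and the second and the third Tyr-L library were nearly equal for *Tnip1* (12.6953 and 12.6896 FPKM). Of the 425 genes called higher over the whole table, 54.1% were highest in Tyr-H library 3. The shares were 17.2% for Tyr-H library 1 and 28.7% for Tyr-H library 2. After rescaling to equal totals they were 43.5% for Tyr-H library 3, 20.7% for Tyr-H library 1 and 35.8% for Tyr-H library 2. The part of Tyr-H library 3 in the results was not tested beyond leaving it out.

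The genes around these 10 in the pathway were taken as 9 lists with 99 genes, of which 93 were listed and 84 tested. Over the lists 17 genes were called higher and 0 lower, beside 2.96% and 5.78% of all tested genes. Of the 17, 5 passed the expression filter through Tyr-H cells alone. The calls lay in 3 lists, receptors that bind TRAFs, NF-kappaB subunits with their inhibitors, and NF-kappaB target genes.

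Of the 53 tested genes in the other 6 lists, limma called 0 in either direction. By the adjusted p alone (0.05 or less) 12 were higher and 20 lower, beside 17.9% and 39.9% of all tested genes, and at an unadjusted p under 0.05 the counts were 12 and 21. These shares lie near those of all genes, and the counts of single lists are to be read against the same background. In the list of other TRAFs and TRAF-binding adaptors 2 of 8 were higher and 2 lower by adjusted p alone. *Traf4*, the most abundant of them, went from 72.9 ± 2.19 to 61.3 ± 2.70 FPKM, a log2 fold change of -0.25.

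Among the other IAPs and their antagonists 1 of 6 was higher and 3 lower by adjusted p alone. *Birc5* (survivin), a protein of dividing cells and the most abundant in that list, went from 97.2 ± 5.09 to 75.9 ± 0.616 FPKM. The IKK and TAK1 kinases with their adaptors had 1 of 10 higher and 3 lower, and *Tab2*, which links TAK1 to ubiquitin chains, went from 28.5 ± 0.659 to 32.1 ± 0.727 FPKM. The IKK kinases and their adaptors thus held no gene past the 2-fold threshold.

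In the TNF receptor complex 1 of 5 tested genes was higher and 3 were lower by adjusted p alone, and *Cflar*, which blocks caspase-8, went from 27.4 ± 0.662 to 23.8 ± 1.24 FPKM. Of the 14 ubiquitin-editing genes 4 were higher and 6 lower, and *Tax1bp1*, an adaptor for A20, went from 62.7 ± 1.67 to 54.0 ± 0.703 FPKM. The IL-1 and TLR arm had 3 of 10 tested higher and 3 lower. Its most abundant gene, *Ube2v1*, went from 111.0 ± 2.62 to 81.1 ± 2.35 FPKM and shares 1673 exonic bases with *Gm20431*, so its value is uncertain.

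Of the receptors whose tails bind TRAFs, 10 of 12 were listed and 7 tested, and 3 were called higher, beside 2.96% of all tested genes. *Tnfrsf12a*, the receptor for TWEAK, was at 42.7, 45.6 and 42.5 FPKM in Tyr-L and at 104, 103 and 114 FPKM in Tyr-H cells, a log2 fold change of 1.29 (SE 0.05). *Tnfrsf9* (4-1BB), a receptor known to bind TRAF1 and TRAF2 whose gene overlaps *Camta1* on the other strand, went from 0.304 ± 0.25 to 2.01 ± 0.376 FPKM, and *Ngfr* from 0.247 ± 0.0351 to 1.47 ± 0.376 FPKM. *Tnfrsf12a* was thus the most abundant of the called receptors in both cell types.

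*Nfkb2*, whose exons overlap *Psd* on the other strand, went from 9.69 ± 0.586 to 19.2 ± 0.439 FPKM. Its log2 fold change of 0.98 (SE 0.06) was just under the 2-fold threshold. Of the NF-kappaB subunits and inhibitors, 4 of 10 tested were called higher, beside 2.96% of all tested genes. These were *Relb*, a subunit of the non-canonical branch (4.19 ± 0.249 to 15.0 ± 0.937 FPKM), the inhibitors *Nfkbia* (3.57 ± 0.0786 to 7.58 ± 0.894) and *Nfkbie* (2.00 ± 0.211 to 6.64 ± 1.05), and the co-regulator *Bcl3* (0.752 ± 0.130 to 3.34 ± 0.0862). The call of *Nfkbia* was lost in 3 of 16 alternatives, one of them without the second Tyr-H library (log2 fold change 0.99).

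Of 20 NF-kappaB target genes outside the 10, 19 were listed and 14 tested, and 10 were called higher, beside 2.96% of all tested genes. The study had already reported *Cxcl1*, *Cxcl2*, *Cxcl10*, *Ccl5* and *Icam1* as higher in Tyr-H cells from its RNA sequencing, so their calls are not independent of it. Of the 10 called, 5 (*Cxcl2*, *Ccl20*, *Icam1*, *Il6* and *Tnf*) passed the expression filter through Tyr-H cells alone and so had to differ. *Cxcl2* was listed in no Tyr-L library. The other 5 were *Cxcl1*, *Cxcl10*, *Ccl5*, *Csf1* and *Tnfaip2*, with log2 fold changes from 1.31 for *Csf1* to 6.98 for *Cxcl1*. *Tnf* itself, which codes for the ligand that starts the pathway, was unlisted (taken as 0) in the first and at 0.127 and 0.0632 FPKM in the other Tyr-L libraries, and at 0.209, 0.267 and 0.190 FPKM in Tyr-H cells, and its call was lost in 7 of 15 alternatives. The call of *Il6* was lost without the third Tyr-H library (log2 fold change 1.04), and those of *Il6* (0.26), *Icam1* (0.65) and, among the receptors, *Ngfr* (0.98) were lost with 1 FPKM added before taking logs.

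**Figure D5:**
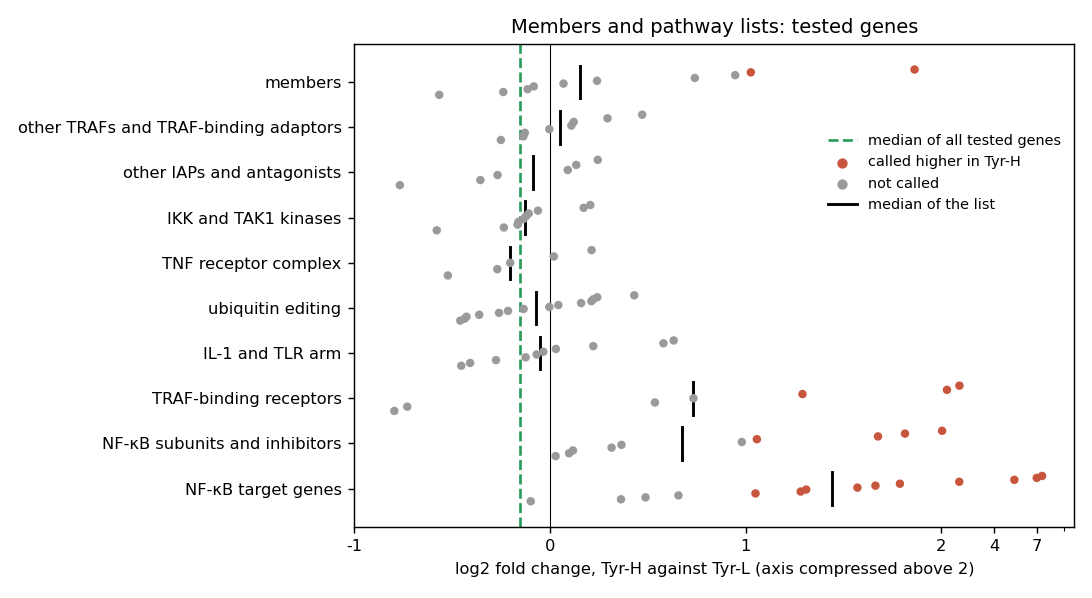
Log2 fold change, Tyr-H against Tyr-L, of the tested genes among the 10 (top row, members) and in 9 pathway lists, with called genes in red, the list median as a black bar and the median of all tested genes as a green dashed line; the axis is compressed above 2, and the values of genes unlisted in Tyr-L libraries depend on the added constant. Called genes appear in the top row and in the lowest 3 rows.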

How the data were processed

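RNA from Tyr-L and Tyr-H B16 cells was sequenced as mRNA libraries, 3 of each, and grouped by the labels. The authors deposited 1 table of FPKM values per library. Per the labels, Trimmomatic, HISAT, HISAT2 and GRCm38.p6 were used. The quantifier is not given in the sources used here. Unlisted genes were taken as 0. No counts were given. Between 25.8% and 28.1% of low values per library were within 0.1 of a whole number of fragments, so no count test was run, and fragment numbers are approximate and cover counting error only.

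Expression on log2(FPKM + 0.1) was compared with limma 3.58.1 in R 4.3.3 (trended eBayes, p-values adjusted by Benjamini-Hochberg across the 14336 genes whose mean reached 0.1 FPKM). The procedure was tested on simulated data. Tables and plots were made in Python 3.11.15 (pandas 2.3.3, numpy 2.4.6, matplotlib 3.10.9). The members and lists were chosen with earlier results of these data known, so no test over a list was made. Named genes were the 10 members, the called genes of each pathway list or, without any, its most abundant gene, with *Tbk1*, *Tyr* and overlapping genes. The marker genes *Ptprc*, *Mitf* and *Oca2* and the subunit gene *Nfkb2* were chosen after their values were seen. Coordinates are from GENCODE M21 and promoter sequences from RefSeq (GRCm38.p6), with the window nearest the GENCODE gene end, matched for 10 of 10 members. Promoters are printed for members called or within 0.25 log2 of the fold threshold, with their paralog.

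Alternatives were pseudocounts of 0.01 and 1 FPKM, no filter, a mean of at least 1 FPKM, 3 scalings, 2 variance estimates, a block for the replicate number, leaving out each library and no fold threshold.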

Additional observations from a re-analysis of the deposited data

How the results depend on the processing

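The number of the 10 genes called was 2, and it was 0 with a pseudocount of 1 FPKM and 0 among genes whose mean reached 1 FPKM, a filter that *Traf1* and *Tnfaip3* do not pass. It was 7 without the fold threshold and 1 to 3 with a library left out, with 1 without the third Tyr-L or the third Tyr-H library. Of the 84 pathway genes tested 17 were called, 57 without the fold threshold and 15 to 18 with a library left out. Over all genes 1254 were called, 33.9% of them higher, against 388 (47.7%) with a pseudocount of 1 FPKM, 1415 (33.1%) with 0.01 FPKM, 640 with a mean of at least 1 FPKM, 1744 (26.2%) after rescaling to equal totals, 1124 (48.4%) after median ratio scaling and 1106 (55.2%) after quantile normalization. Deposited totals were 446757 to 494468 FPKM, so rescaling to 1000000 enlarged every value while the constant and the filter stayed at 0.1 FPKM. With it 15719 genes were tested.

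The sign turned for *Traf2* (-0.024 after rescaling to equal totals), *Traf3* (0.039 and 0.016 after median ratio and quantile scaling) and *Birc2* (0.068 and 0.096 after the same; with a library left out -0.15 to 0.015, the latter without the first Tyr-H library). With a pseudocount of 1 FPKM the difference in log2 ratio was 0.41 for *Traf1* to *Traf2*, 0.58 for *Traf1* to *Traf3* and 0.66 for *Birc3* to *Birc2*. Under the same pseudocount it was 0.72 for *Ikbke* to *Tbk1*, -0.32 for *Tnfaip3* to *Tnip1* and -0.18 for *Map3k14* to *Traf3*. With 0.01 FPKM it was 2.89 (*Traf1* to *Traf2*) and 3.07 (*Traf1* to *Traf3*). With a library left out these differences ranged from 1.57 to 1.92 (*Traf1* to *Traf2*), 1.77 to 2.10 (*Traf1* to *Traf3*), 0.80 to 1.24 (*Birc3* to *Birc2*), 0.77 to 0.87 (*Ikbke* to *Tbk1*), 0.04 to 0.42 (*Tnfaip3* to *Tnip1*) and -0.54 to -0.35 (*Map3k14* to *Traf3*). The median of the 10 genes lay 0.31 above that of all tested genes, 0.24 with a pseudocount of 1 FPKM, 0.21 among genes whose mean reached 1 FPKM, and 0.26 to 0.34 with a library left out. The cause of these shifts was not tested.

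The replicate numbers are shared by both groups, but nothing in the labels pairs them, and deviations of libraries with the same number correlated at 0.02, 0.01 and -0.08 across genes, with not every library closest to its own number. With the number as a block 2 of the 10 genes and 17 pathway genes were called, and 1258 of all genes. No call changed among the 10 genes, and *Ikbke* then had a limma adjusted p of 0.07. Depth limits *Traf1* most, whose Tyr-L values stand for under 6 fragments a library, and no replicate beyond 3 a group bears on any value.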
